A study of Mus musculus with 2 samples.

Results

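Sox9, Lhx2, Nfatc1, Tbx1, Gata6 and Runx1 are 6 transcription factor genes known for their roles in hair follicle (HF) stem cells, in the outer root sheath (ORS) and in the upper HF. They were chosen by gene symbol and make up 6 of the 56694 genes in the deposited count tables. Single-cell RNA was measured in the back skin epidermis of mice at postnatal day 2 to compare HF formation with and without epidermal Gli2, which encodes a transcription factor of Hedgehog signalling. The control library came from floxed littermates without Cre, labelled WT, and the Gli2EKO library from K14Cre tg; Gli2 fl/fl mice, in which Cre is driven by the keratin 14 promoter and so acts in keratinocytes. There was 1 library per genotype and the number of mice in each is not given in the sources used here, so no test between genotypes was possible and every interval below is a 95% interval that covers counting error only.

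The outer root sheath is the outermost epithelial layer of the HF and is continuous with the interfollicular epidermis (IFE). Its upper stretch gives rise to the bulge, where HF stem cells reside in the adult, whereas the matrix at the base of the HF produces the inner root sheath (IRS) and the hair shaft. Sox9 encodes an HMG-box factor needed to set up the stem cell compartment, and Lhx2 a LIM homeodomain factor of the hair placode and the bulge. Nfatc1 encodes a calcineurin-dependent factor linked to stem cell quiescence, and Tbx1 a T-box factor linked to stem cell self-renewal. Gata6 encodes a zinc finger factor of the upper HF and the sebaceous duct, and Runx1 a runt-domain factor that binds DNA together with Cbfb and is also known from blood cells.

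In GRCm39, Sox9 lies on chromosome 11 from 112673009 to 112678586 on the plus strand, and Lhx2 on chromosome 2 from 38229293 to 38259759 on the plus strand. Tbx1 lies on chromosome 16 from 18399729 to 18409421 and Runx1 on chromosome 16 from 92398354 to 92623037, both on the minus strand. Each of the 6 genes overlaps at least 1 annotated long non-coding RNA gene on the opposite strand, such as BC006965 at Sox9 and Gata6os at Gata6. Cell Ranger, the program the reads were counted with, by default counts only reads in the sense direction of a gene, so that under this default reads of such a partner are not counted for the factor.

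The 250 bases before the annotated start of Sox9, Lhx2, Tbx1 and Runx1 are shown because the outer sheath cells described below carried transcripts of these factors together. They were read 5′ to 3′ on the strand of each gene from the GRCm39 reference, and capitals mark a match to a searched motif. The windows are chr11:112672759-112673008 for Sox9, chr2:38240521-38240770 for Lhx2, chr16:18405720-18405969 for Tbx1 and chr16:92623038-92623287 for Runx1. Those of Lhx2 and Tbx1 lie within the annotated span of the gene, because other transcripts start further upstream, and none of the 4 overlaps an exon of its own gene.
Sox9: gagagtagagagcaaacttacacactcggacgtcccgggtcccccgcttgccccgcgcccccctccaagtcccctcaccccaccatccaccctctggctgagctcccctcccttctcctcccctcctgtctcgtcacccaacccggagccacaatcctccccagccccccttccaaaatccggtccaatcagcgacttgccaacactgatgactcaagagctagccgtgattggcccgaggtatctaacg
Lhx2: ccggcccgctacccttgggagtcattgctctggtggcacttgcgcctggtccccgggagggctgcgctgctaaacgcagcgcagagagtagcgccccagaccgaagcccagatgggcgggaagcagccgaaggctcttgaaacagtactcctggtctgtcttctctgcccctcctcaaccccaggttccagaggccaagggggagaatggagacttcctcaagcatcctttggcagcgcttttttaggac
Tbx1: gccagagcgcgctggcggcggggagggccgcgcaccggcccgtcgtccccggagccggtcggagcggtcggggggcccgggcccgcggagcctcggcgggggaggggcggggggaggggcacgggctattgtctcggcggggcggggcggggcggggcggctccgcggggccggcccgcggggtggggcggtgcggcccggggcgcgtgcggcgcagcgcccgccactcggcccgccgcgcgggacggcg
Runx1: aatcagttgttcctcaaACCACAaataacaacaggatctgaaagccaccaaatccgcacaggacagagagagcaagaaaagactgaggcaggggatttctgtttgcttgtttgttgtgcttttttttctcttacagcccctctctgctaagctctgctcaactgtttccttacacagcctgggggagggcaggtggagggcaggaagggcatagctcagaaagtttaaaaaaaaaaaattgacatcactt
The GC content of these windows was 62.4% for Sox9, 61.6% for Lhx2, 88% for Tbx1 and 44.8% for Runx1. The Tbx1 window held 48 CG dinucleotides, against 13 for Sox9, 12 for Lhx2 and 1 for Runx1. Both strands were searched for GACCACCCA, the motif of GLI factors, and for short motifs of the families of the 6 members. These were ACAAAG for SOX factors, TAATTA for LIM homeobox factors, GGAAAA for NFAT factors, GGTGTGA for T-box factors, AGATAA for GATA factors and TGTGGT for RUNX factors. The only match in the 4 windows was a RUNX motif before Runx1, written as ACCACA on the strand shown, a motif that 13.0% of 21770 promoter windows of this length held. The GLI motif was in none of the 4 and in 0.188% of all windows.

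Of 10622 barcodes, 4464 control and 3121 Gli2EKO cells were kept after limits on genes, mitochondrial share and doublet score, and 3324 and 2317 of these were keratinocytes. No barcode was shared by the libraries, and the median depth per keratinocyte was 12434 unique molecular identifiers (UMIs) in the control and 12929 in the Gli2EKO library. Krt5, a basal keratin, was at 3078 CPM (UMIs of the gene over all UMIs, scaled to 1e+06) in control and 4719 CPM in Gli2EKO keratinocytes, while Ptprc, which marks leukocytes, was at or under 0.195 CPM in either library. The other cells included 851 control and 650 Gli2EKO fibroblasts, although the tissue is labelled epidermis. Gli2 itself stood at 83.2 CPM in control and 84.8 CPM in Gli2EKO keratinocytes, which does not check the labels, because the assay counts the polyA end and the deleted exons are not given in the sources used here.

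Keratinocytes were sorted into 10 classes from 16 clusters found without the 6 factors, and each cluster was named by the marker genes with the highest mean level over the other clusters. The names are rebuilt and need not match those of the study. The ORS/SC-like class was cluster 7, with 200 control and 126 Gli2EKO cells. Its leading genes were Nlgn1, Adamts19, Nkain2 and Col4a3, and none of its 8 ORS and stem cell markers was among its 10 leading genes, although 5 were found in at least 10% of its cells. Its score was 1.35, and markers of the lower ORS came next at 0.87. The same 8 markers summed to 2436 CPM in control fibroblasts, against 1772 CPM in control cells of the class. The contractile-like class, named from smooth muscle genes such as Tagln and Acta2, comprised clusters 0, 4 and 12 with 883 control and 483 Gli2EKO cells, and markers of the lower ORS had the next highest score in all 3. The remaining classes were companion-like, upper follicle-like, matrix/progenitor-like, IRS-like, hair lineage/shaft-like, sebaceous gland-like, IFE basal-like and IFE suprabasal-like. Nfatc1 was among the 10 leading genes of cluster 3 of the upper follicle-like class and Tbx1 among those of cluster 4, so these values describe the clusters and are no separate finding.

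Sox9 was highest in ORS/SC-like cells and next highest in companion-like cells in both libraries. In the control it stood at 745 CPM (705 to 786) in ORS/SC-like, 585 (553 to 619) in companion-like, 236 (227 to 245) in contractile-like and 183 (172 to 194) in upper follicle-like cells. In the Gli2EKO library the same classes held 784 (732 to 838), 566 (523 to 612), 268 (255 to 282) and 122 CPM (112 to 133). The order of these 4 classes was the same in both libraries, with no overlap of intervals between neighbours. All other classes were lower, from 6.29 CPM in hair lineage/shaft-like to 83.5 CPM in IFE suprabasal-like control cells and from 18.1 to 43.1 CPM in the Gli2EKO library, where neighbours in the order had overlapping intervals.

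Lhx2 was highest in ORS/SC-like cells and present in the matrix, where Sox9 was low. Its levels in the control were 499 CPM (466 to 533) in ORS/SC-like, 277 (268 to 287) in contractile-like, 211 (200 to 221) in matrix/progenitor-like and 161 (144 to 179) in companion-like cells. The Gli2EKO library had 488 CPM (448 to 531), 221 (209 to 234), 217 (201 to 234) and 108 CPM (89.2 to 129) in the same classes. There the contractile-like and matrix/progenitor-like intervals overlapped, which they did not in the control. In the IFE basal-like class Lhx2 was at 12.4 CPM in control and 2.06 CPM in Gli2EKO cells, and in immune cells, which should lack it, at 12.9 CPM in the control and with 0 of 543582 UMIs in the Gli2EKO library, a count that allows up to 5.52 CPM. The IFE levels of Lhx2 are therefore read as background and not as expression.

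Nfatc1 was high in ORS/SC-like and upper follicle-like cells and under 50 CPM in the other 8 keratinocyte classes. The gene lies on chromosome 18 from 80649266 to 80756295 on the minus strand. It stood at 310 CPM (284 to 337) in control and 346 CPM (312 to 382) in Gli2EKO ORS/SC-like cells. In upper follicle-like cells it was at 173 CPM (163 to 184) in the control and 137 CPM (126 to 148) in the Gli2EKO library. Companion-like cells came next, with 34.9 CPM in control and 41.6 CPM in Gli2EKO cells. Melanocytes, taken here as the background of Nfatc1, held 13.2 CPM (7.55 to 21.4) in the control and 19.1 CPM (10.9 to 31.0) in the Gli2EKO library. Outside keratinocytes, endothelial cells held 58.8 CPM in the control and 80.8 CPM in the Gli2EKO library, from 16 and 11 UMIs.

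Tbx1 was shared by ORS/SC-like and contractile-like cells. Contractile-like cells carried 364 CPM (353 to 376) in the control and 368 CPM (352 to 384) in the Gli2EKO library. ORS/SC-like cells carried 331 CPM (305 to 359) in the control, overlapping the contractile-like class, and 541 CPM (498 to 586) in the Gli2EKO library, above it. The contractile-like class held 75.0% of all keratinocyte Tbx1 UMIs of the control with 26.6% of its cells, and 67.9% with 20.8% of the cells in the Gli2EKO library. Companion-like cells followed with 106 and 115 CPM, and IFE basal-like cells, at 7.53 CPM in the control and 2.64 CPM in the Gli2EKO library, lay near or below the cells that should lack Tbx1. These were immune cells, at 7.50 CPM in the control and with no UMI in the Gli2EKO library, which allows up to 5.52 CPM, and melanocytes, at 26.4 CPM (18.1 to 37.3) and 10.7 CPM (4.91 to 20.4). Tbx1 levels near those of immune cells are read as background, and levels between these and the melanocytes are not read either way.

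Gata6 had few UMIs in all, and most of its control UMIs came from the upper HF. The gene lies on chromosome 18 from 11051565 to 11086995 on the plus strand. The upper follicle-like class held 55.8% of its 557 control UMIs and 46.0% of its 311 Gli2EKO UMIs. Its level there was 50.4 CPM (45.0 to 56.3) in the control and 32.8 CPM (27.7 to 38.7) in the Gli2EKO library. The next class in the control was IFE suprabasal-like at 22.2 CPM (18.3 to 26.7), and in the Gli2EKO library the companion-like class was highest at 76.0 CPM (60.6 to 94.05). Without integration of the libraries the upper follicle-like class was the highest for Gata6 in both. In contractile-like cells Gata6 was at 1.24 CPM in the control and 0.896 CPM in the Gli2EKO library, and immune cells had no Gata6 UMI in either library, which allows up to 3.21 and 5.52 CPM.

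Runx1 was found across the HF classes, at over 100 CPM in 6 of 10 keratinocyte classes in each library. In the control the upper follicle-like class at 222 CPM (210 to 234) and the ORS/SC-like class at 212 CPM (191 to 235) had overlapping intervals, followed by companion-like at 151 (135 to 169) and contractile-like at 138 CPM (131 to 145), which overlapped too. In the Gli2EKO library ORS/SC-like at 264 CPM (234 to 296) and companion-like at 245 CPM (217 to 276) overlapped at the top, and contractile-like stood at 150 and upper follicle-like at 135 CPM. Hair lineage/shaft-like cells, which had little Sox9, Nfatc1, Tbx1 or Gata6, held 120 CPM in the control and 143 CPM in the Gli2EKO library. Immune cells were at 217 and 224 CPM, so for Runx1 the melanocytes, at 8.25 and 4.77 CPM, serve as the background.

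**Figure D1:**
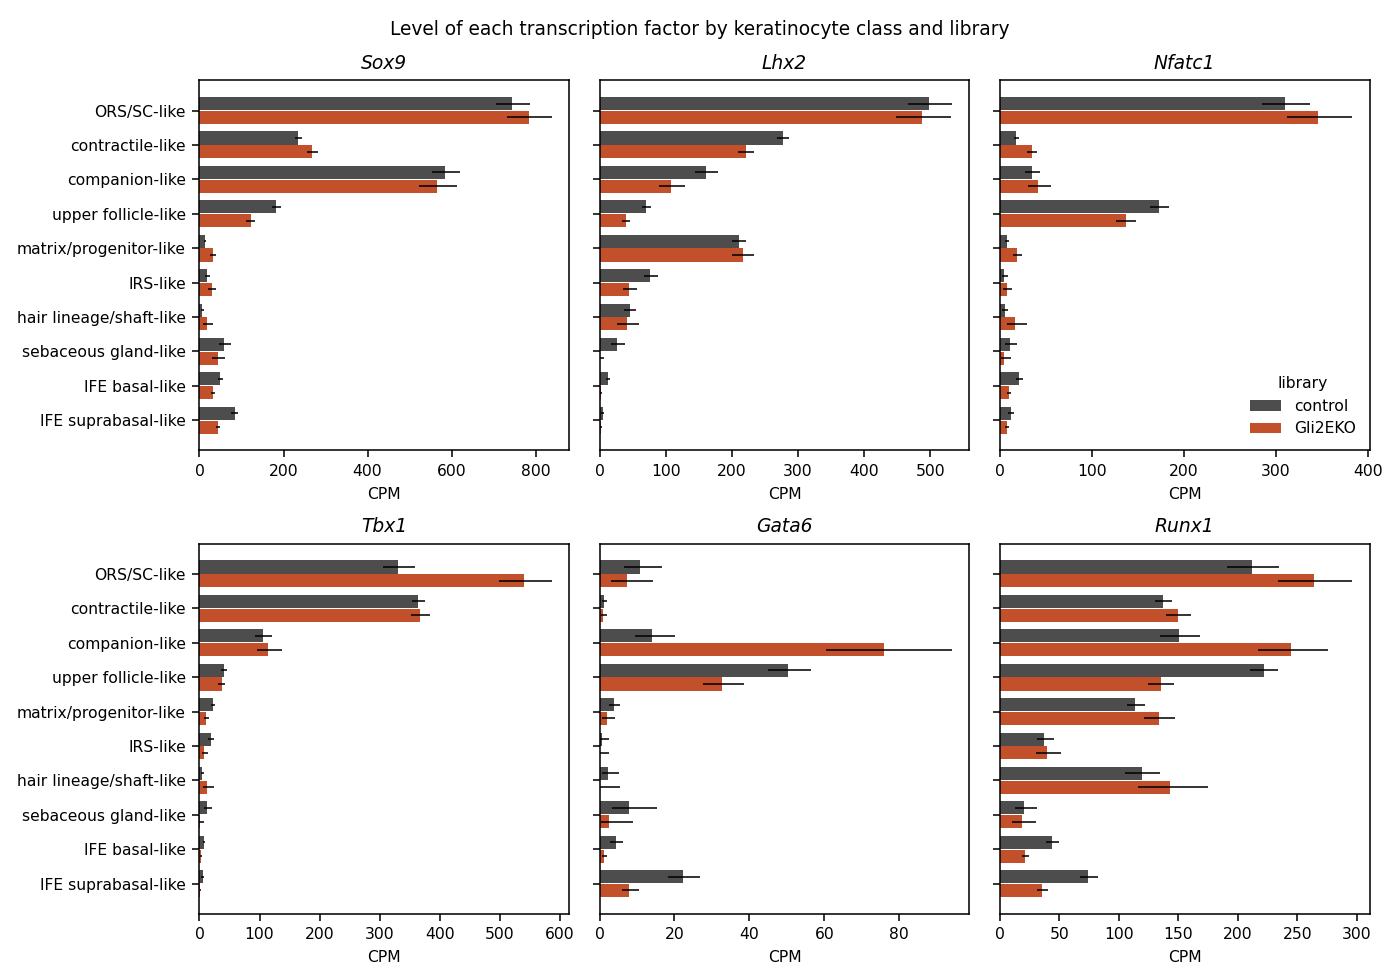
Level of each factor in CPM (linear axis) in the 10 keratinocyte classes of the control and Gli2EKO libraries, with bars for the summed UMIs of a class and lines for exact Poisson 95% intervals. Sox9, Lhx2 and Nfatc1 peak in ORS/SC-like cells of both libraries, Tbx1 is high in ORS/SC-like and contractile-like cells, and Gata6 peaks in upper follicle-like control cells at 50.4 CPM and in companion-like Gli2EKO cells at 76.0 CPM, the latter only where the libraries were integrated.

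Over all keratinocytes each of the 6 factors had a lower level in the Gli2EKO library. Sox9 had 7261 UMIs (157 CPM) in the control and 4267 (127 CPM) in the Gli2EKO library, a log2 ratio of -0.31 (-0.36 to -0.25). Lhx2 went from 147 to 85.0 CPM, a log2 ratio of -0.79 (-0.86 to -0.73), the largest difference of the 6. The log2 ratios of the others were -0.14 (-0.24 to -0.04) for Nfatc1, -0.40 (-0.46 to -0.33) for Tbx1, -0.38 (-0.59 to -0.18) for Gata6 and -0.42 (-0.49 to -0.36) for Runx1. Only Lhx2, 1 of 6, passed a log2 ratio of -0.5, which 13.0% of 15639 genes with at least 50 UMIs passed, while none passed 0.5, which 5.38% of genes did. The median log2 ratio of all these genes was -0.14, so Nfatc1 lay at the median.

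The libraries also differed in their share of classes. IFE basal-like cells made up 10.6% of control and 24.3% of Gli2EKO keratinocytes, and IFE suprabasal-like cells 6.59% and 13.5%. Contractile-like cells made up 26.6% and 20.8%, matrix/progenitor-like cells 15.8% and 9.80%, whereas ORS/SC-like cells, at 6.02% (5.23 to 6.88) and 5.44% (4.55 to 6.44), and upper follicle-like cells, at 14.2% (13.0 to 15.4) and 12.5% (11.2 to 13.9), had overlapping intervals. When the Gli2EKO clusters were weighted to the cell shares of the control library, the log2 ratio was -0.04 for Sox9, -0.29 for Lhx2, 0.11 for Nfatc1, -0.002 for Tbx1, -0.19 for Gata6 and -0.06 for Runx1. The Nfatc1 ratio thus changed sign under this weighting, and Lhx2 kept the largest difference of the 6.

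In ORS/SC-like cells none of the 5 factors with at least 50 UMIs was lower in the Gli2EKO library by more than counting error. The intervals of the log2 ratio spanned 0 for Sox9 at 0.07 (-0.05 to 0.20), for Lhx2 at -0.03 (-0.19 to 0.13) and for Nfatc1 at 0.16 (-0.03 to 0.35). Tbx1 had a higher level, 541 against 331 CPM, with a log2 ratio of 0.71 (0.54 to 0.87), and Runx1 stood at 264 against 212 CPM, with a log2 ratio of 0.31 (0.09 to 0.54). Tbx1 was the 1 of 5 past 0.5, where 7.25% of 7540 genes of the class were higher by as much. Contractile markers summed to 243 CPM in control and 425 CPM in Gli2EKO cells of the class, with 1 of 5 and 0 of 5 markers at 0, and their part in the Tbx1 difference was not tested. The class markers themselves summed to 1772 CPM in the control and 1452 CPM in the Gli2EKO library, where 2 of 8 were at 0. Gata6 had 19 and 8 UMIs there.

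In contractile-like cells Lhx2 was lower and Nfatc1 higher in the Gli2EKO library. Lhx2 stood at 277 CPM in the control and 221 CPM in the Gli2EKO library, a log2 ratio of -0.33 (-0.42 to -0.23). The clusters of the class differed in this. Cluster 0 had 259 CPM of Lhx2 in the control and 241 in the Gli2EKO library, the dividing cluster 4 had 304 and 230 CPM, and cluster 12, led by Tagln and Acta2 among others, had 254 and 104 CPM. Nfatc1 was at 18.2 CPM in the control and 34.8 CPM in the Gli2EKO library, a log2 ratio of 0.93 (0.64 to 1.22), and was higher in each of the 3 clusters. The control level lay within the interval of the melanocytes and the Gli2EKO level above it. Nfatc1 was the 1 of 5 factors past 0.5, where 3.53% of 11517 genes of the class were higher by as much. Sox9, at 236 and 268 CPM, and Runx1, at 138 and 150 CPM, had log2 ratios of 0.19 (0.09 to 0.28) and 0.12 (0.00 to 0.25), and Tbx1 did not differ beyond counting error, with a log2 ratio of 0.01 (-0.06 to 0.09).

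In upper follicle-like cells Lhx2, Runx1, Gata6, Sox9 and Nfatc1 were lower in the Gli2EKO library, with intervals below 0. The share of all genes with such an interval was not counted. Lhx2 went from 70.8 to 39.5 CPM, a log2 ratio of -0.84 (-1.11 to -0.59), and Runx1 from 222 to 135 CPM, a log2 ratio of -0.71 (-0.86 to -0.57). The log2 ratios were -0.62 (-0.92 to -0.33) for Gata6, -0.59 (-0.74 to -0.44) for Sox9 and -0.34 (-0.48 to -0.19) for Nfatc1, while Tbx1 was at 40.0 and 37.2 CPM. Thus 4 of 6 passed -0.5, where 13.0% of 10496 genes of the class were lower by as much. The 8 suprabasal IFE markers summed to 1454 CPM in control and 2493 CPM in Gli2EKO cells of the class and the 7 upper HF markers to 2459 and 2178 CPM, with none at 0, and their part in these differences was not tested.

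In companion-like cells Gata6 was higher in the Gli2EKO library. It had 29 UMIs (14.1 CPM, 9.42 to 20.2) in 178 control cells and 84 UMIs (76.0 CPM, 60.6 to 94.05) in 95 Gli2EKO cells, a log2 ratio of 2.43 (1.81 to 3.09). The UMIs came from 15 control cells, with at most 4 in a cell, and 23 Gli2EKO cells, with at most 10. The log2 ratio was 2.27 without the Gli2EKO cell with the most Gata6 UMIs, and 0.84 when the libraries were clustered without integration. Runx1 was at 151 and 245 CPM, a log2 ratio of 0.70 (0.46 to 0.94), and Lhx2 at 161 and 108 CPM, a log2 ratio of -0.58 (-0.89 to -0.27). A single Gli2EKO cell carried 58 Runx1 UMIs, and without it the class stood at 199.9 CPM of Runx1 and the log2 ratio at 0.41 (0.15 to 0.66), no longer past 0.5. Runx1 was found in 36.6% of control cells (29.2 to 44.5) and 40.0% of Gli2EKO cells (29.5 to 51.2), which overlap. With all cells Gata6 and Runx1 were 2 of 6 past 0.5, and without that cell Gata6 alone, where 6.47% of 7511 genes of the class were higher by as much, and Lhx2 was 1 of 6 past -0.5, where 10.8% were lower. Suprabasal IFE markers summed to 1587 CPM in control and 3193 CPM in Gli2EKO cells of the class, and upper HF markers to 1176 and 1851 CPM, with none at 0 in either list, and their part in the Gata6 and Runx1 differences was not tested. Sox9, at 585 and 566 CPM, Tbx1 and Nfatc1 did not differ beyond counting error.

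In matrix/progenitor-like cells Lhx2 was at 211 and 217 CPM, with a log2 ratio of 0.04 (-0.09 to 0.17). Sox9 and Nfatc1 were both low in this class, near cells that should lack them except for Sox9 in the Gli2EKO library. Sox9 had 95 UMIs (12.7 CPM) in control and 99 UMIs (32.0 CPM) in Gli2EKO cells, a log2 ratio of 1.33 (0.91 to 1.75), and Nfatc1 had 59 UMIs (7.89 CPM) and 58 UMIs (18.7 CPM), a log2 ratio of 1.25 (0.70 to 1.80). They were 2 of 5 factors past 0.5, where 7.30% of 10484 genes of the class were higher by as much. For Sox9 the control level was that of immune cells, at 12.9 CPM, and the Gli2EKO level lay above theirs, at 3.68 CPM. For Nfatc1 both levels of the class lay within the intervals of the melanocytes, so its class values are not told apart from background. No difference in expression is read from them. Tbx1 went the other way, from 22.5 to 10.99 CPM, a log2 ratio of -1.03 (-1.61 to -0.49), the 1 of 5 past -0.5, where 8.47% of genes were lower. Melanocytes held as much Tbx1 and were lower in the Gli2EKO library too. Fibroblasts held less, at 6.63 and 6.71 CPM, and control immune cells were at 7.50 CPM. Whether this Tbx1 level is background thus depends on the cells set beside it, and no difference in expression is read from it. IFE basal markers summed to 1420 CPM in control and 3179 CPM in Gli2EKO cells of the class, and lower ORS markers to 212 and 514 CPM, with none at 0, whereas matrix markers summed to 1166 and 840 CPM. Their part in the Sox9 and Nfatc1 differences was not tested. Cluster 14 of this class was shallow, with a median of 5436 UMIs and 9.84% mitochondrial UMIs, and in cluster 1 alone Sox9 was at 11.9 and 31.9 CPM and Nfatc1 at 3.63 and 13.1 CPM. The clusters were unlike for Nfatc1, which in cluster 14 was at 40.8 CPM in control and 65.2 CPM in Gli2EKO cells. These levels, from 35 and 22 UMIs, lay above the intervals of the melanocytes, with a log2 ratio of 0.68 (-0.16 to 1.49).

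In IRS-like cells Lhx2 was at 76.9 CPM in the control and 45.1 CPM in the Gli2EKO library, a log2 ratio of -0.77 (-1.19 to -0.37). Tbx1, at 18.5 and 8.07 CPM, lay within its intervals in melanocytes and above its levels in fibroblasts, at 6.63 and 6.71 CPM. Together they were 2 of 4 factors past -0.5, where 17.2% of 8414 genes of the class were lower by as much. Sox9, at 18.5 and 28.9 CPM, was the 1 of 4 past 0.5, where 6.07% were higher, with a log2 ratio of 0.65 (0.04 to 1.25). A single Gli2EKO cell held 11 of its 43 UMIs, and without it the log2 ratio was 0.26 (-0.41 to 0.92). The share of cells with Sox9 went the other way, at 7.18% (3.98 to 11.8) in the control and 6.02% (1.98 to 13.5) in the Gli2EKO library, so no difference in Sox9 is read from this class. In it the IRS markers summed to 8843 CPM in control and 18152 CPM in Gli2EKO cells, suprabasal IFE markers to 917 and 2549 CPM, IFE basal markers to 754 and 1525 CPM and division markers to 3023 and 1591 CPM, with none at 0, and their part in the Lhx2 difference was not tested.

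In the IFE the factors were low, and the levels of Sox9 and Runx1 were lower in the Gli2EKO library. The share of cells with Runx1, at equal depth, was lower too, with no overlap of intervals in either IFE class. For Sox9 these shares overlapped, at 11.7% (8.54 to 15.6) and 9.75% (7.41 to 12.5) in IFE basal-like cells. In IFE suprabasal-like cells their intervals were 14.9 to 25.98% and 13.6 to 22.6%. A lower share of cells with Sox9 is therefore not read from the IFE. In IFE basal-like cells Sox9 was at 49.5 CPM in the control and 31.9 CPM in the Gli2EKO library, and Runx1 at 43.9 and 21.3 CPM. The 3 clusters of the class differed in this. Sox9 was at 14.4 and 14.1 CPM in cluster 5, and the log2 ratio of Runx1 in cluster 13 was -0.25 (-0.76 to 0.25). The share of cells with Sox9 was higher in the Gli2EKO library in cluster 13 and lower in cluster 9, with overlapping intervals in both. All 5 factors with at least 50 UMIs in the class passed -0.5, where 6.93% of 10849 genes of the class were lower by as much, but Lhx2 and Tbx1 are among them at levels read as background, and Nfatc1, at 20.8 and 9.97 CPM, lay near the melanocytes. In IFE suprabasal-like cells Sox9 was at 83.5 and 43.0 CPM, Runx1 at 74.3 and 35.4 CPM and Gata6 at 22.2 and 7.95 CPM, all above the cells that should lack them, and Nfatc1, at 12.1 and 7.50 CPM, was at background. These were 4 of 4 past -0.5, where 9.63% of 9825 genes were. In the same cells the upper HF markers summed to 993 CPM in the control and 593 CPM in the Gli2EKO library and the IRS markers to 625 and 218 CPM, with none at 0, and their part in these differences was not tested.

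In fibroblasts the log2 ratios were -0.95 (-1.53 to -0.40) for Sox9, -1.34 (-2.13 to -0.61) for Lhx2 and -0.28 (-0.53 to -0.04) for Nfatc1. That of Runx1 was -0.18 (-0.34 to -0.01), and the intervals of Tbx1 and Gata6 spanned 0. Sox9 was at 10.6 CPM in control and 5.52 CPM in Gli2EKO fibroblasts and Lhx2 at 7.53 and 2.98 CPM, whereas Tbx1 was at 6.63 and 6.71 CPM and Gata6 at 2.51 and 2.39 CPM. Nfatc1 was at 38.6 and 31.8 CPM there and Runx1 at 81.7 and 72.2 CPM. The part of free RNA in the IFE differences was not tested.

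**Figure D2:**
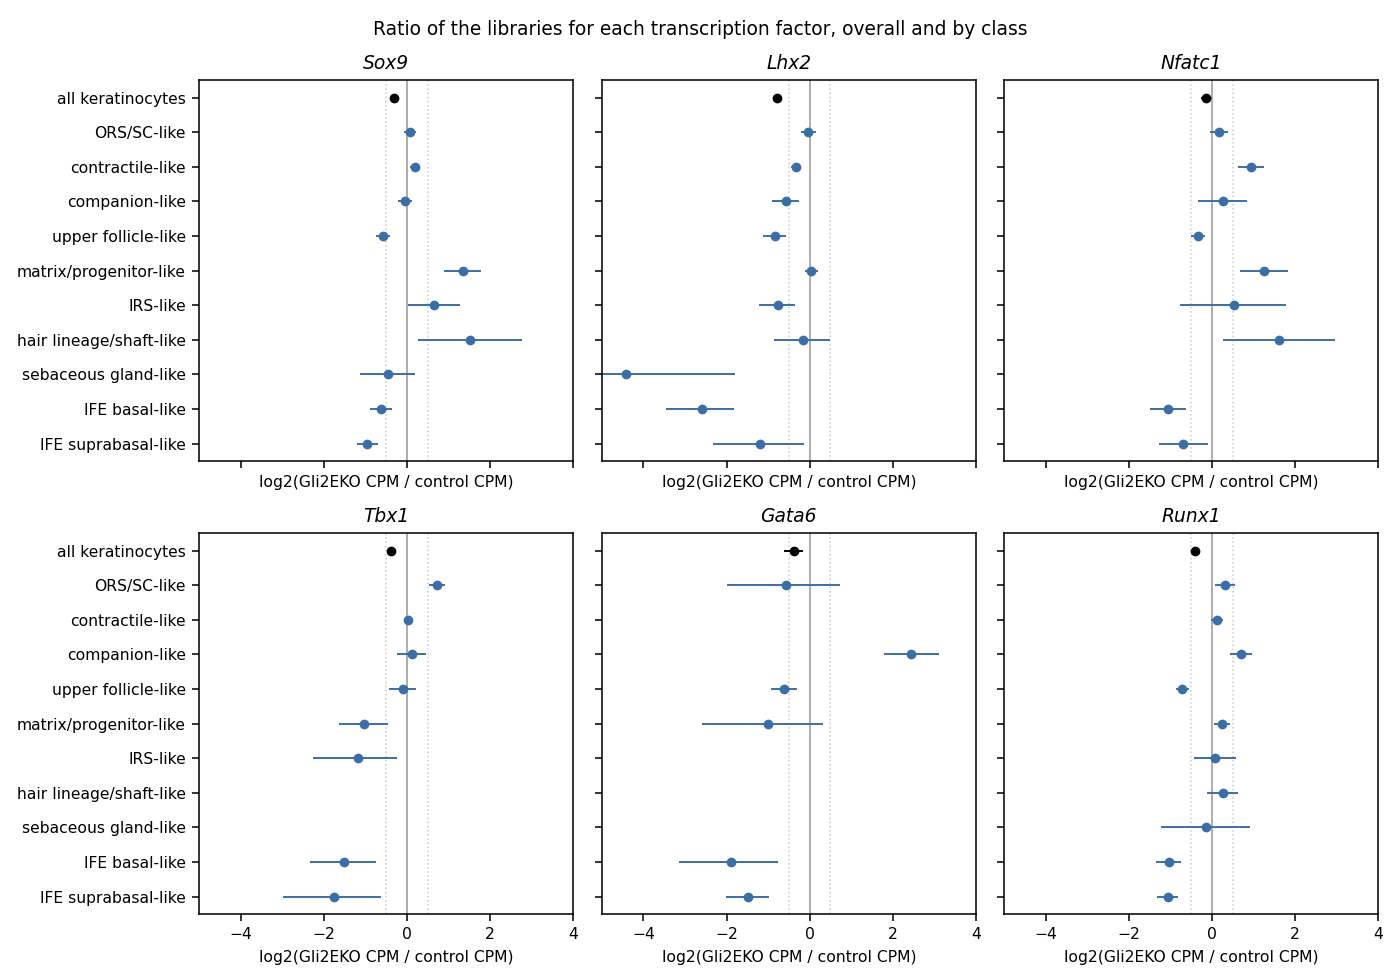
Log2 ratio of Gli2EKO over control CPM for each factor, for all keratinocytes (black) and for each class (blue), with 95% counting intervals, a grey line at 0 and dotted lines at -0.5 and 0.5. Classes with under 20 UMIs in both libraries together or without a ratio are left out, the interval of Lhx2 in sebaceous gland-like cells runs past the axis, and the ORS/SC-like points of Sox9, Lhx2 and Nfatc1 lie near 0 while the IFE points of all factors lie below it.

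Some classes held a resting and a dividing cluster, a contrast chosen after the data were seen. In upper follicle-like cells Tbx1 was lower in the dividing cluster 11 than in the resting cluster 3, at 25.2 against 50.7 CPM in the control and 26.6 against 48.2 CPM in the Gli2EKO library, the level of cluster 11 in the control being that of melanocytes. Nfatc1 showed opposite directions in different classes. In contractile-like cells it was higher in the dividing cluster 4 than in cluster 0, with 25.1 against 16.3 CPM and 48.5 against 27.3 CPM, and log2 ratios of 0.62 (0.20 to 1.05) in the control and 0.83 (0.39 to 1.28) in the Gli2EKO library, whereas in upper follicle-like cells it was lower in the dividing cluster, at -0.36 (-0.54 to -0.17) and -0.31 (-0.55 to -0.08). Runx1 was lower in dividing cluster 4 than in cluster 0, at -0.49 and -0.37. In IFE basal-like cells it was higher in dividing cluster 9 than in cluster 5, at 1.25 and 2.05. Other clusters of these classes did not keep these directions in both libraries. In the control, cluster 12 of the contractile-like class held 100.06 CPM of Runx1, below cluster 4 at 119.58 CPM. In the Gli2EKO library, cluster 13 of the IFE basal-like class held 39.04 CPM, above cluster 9 at 28.23 CPM. The opposite library kept the direction in each case.

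Detection of a factor, as the share of cells with at least 1 UMI, was counted in cells thinned to 5000 UMIs each, which left out 329 control and 200 Gli2EKO keratinocytes. In ORS/SC-like cells, Sox9 was found in 96.7% of control cells (92.9 to 98.8) and 91.5% of Gli2EKO cells (85.0 to 95.9), and Lhx2 in 83.3% and 82.2%. Tbx1 was found in 71.1% (63.9 to 77.6) and 89.0% (81.9 to 94.0) of these cells, Runx1 in 58.9% (51.3 to 66.2) and 72.9% (63.9 to 80.7), and Nfatc1 in 63.3% and 70.3%. Unthinned, the shares in the control were 96.0% for Sox9, 90.0% for Lhx2, 85.0% for Tbx1, 74.0% for Runx1 and 73.5% for Nfatc1, at a median depth of 8294 UMIs. Immune cells thinned alike held Sox9 in 1.41%, Lhx2 in 2.82% and Tbx1 in 5.63% of 71 control cells and in 0 of 40 Gli2EKO cells, which allows up to 7.50%, and melanocytes held Nfatc1 in 7.32% and 16.4% and Runx1 in 4.88% and 0% of 82 and 61 cells. Gata6, in 3.33% of control and 2.54% of Gli2EKO ORS/SC-like cells, had intervals that overlapped the immune cells, where it was found in 0 of 71 and 0 of 40, which allows up to 4.23% and 7.50%. The median depths of the immune cells were 9995 and 11518 UMIs before thinning, and those of the melanocytes 7716 and 10086.

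Outside the ORS/SC-like class each factor kept its own pattern of detection. In upper follicle-like cells, Nfatc1 was found in 49.3% of control cells (44.4 to 54.2) and 39.8% of Gli2EKO cells (34.0 to 45.8), Runx1 in 56.7% (51.8 to 61.5) and 41.6% (35.7 to 47.6), and Gata6 in 18.1% (14.5 to 22.1) and 15.1% (11.1 to 19.8). In contractile-like cells, Tbx1 was found in 76.9% and 75.1%, Lhx2 in 68.5% and 65.3%, and Nfatc1 in 6.95% and 11.6%, the last within the range of the melanocytes. In companion-like cells, Sox9 was found in 90.2% and 85.9%, and Gata6 in 3.66% (1.35 to 7.79) and 15.3% (8.40 to 24.7). In matrix/progenitor-like cells, Lhx2 was found in 57.1% and 52.5% and Sox9 in 3.37% (1.90 to 5.50) and 12.3% (7.87 to 18.0).

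Several of the 6 factors were often found in the same cell. These counts were not set beside those that the single shares of the factors would give. At 5000 UMIs per cell, at least 4 of 6 were found in 62.2% of 180 control and 76.3% of 118 Gli2EKO ORS/SC-like cells. In contractile-like cells this share was 17.5% and 21.5%, in companion-like cells 13.4% and 15.3%, in upper follicle-like cells 13.8% and 12.2%, and in matrix/progenitor-like cells 0.899% and 0.559%. No factor was found in 72.0% of control and 80.7% of Gli2EKO IFE basal-like cells, in 12.9% and 26.2% of upper follicle-like cells, and in none of the 180 and 118 ORS/SC-like cells. Over all keratinocytes, 25.8% of control and 41.0% of Gli2EKO cells had none of the 6. All 6 together were found in 1 control ORS/SC-like cell and in no Gli2EKO cell of that class.

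**Figure D3:**
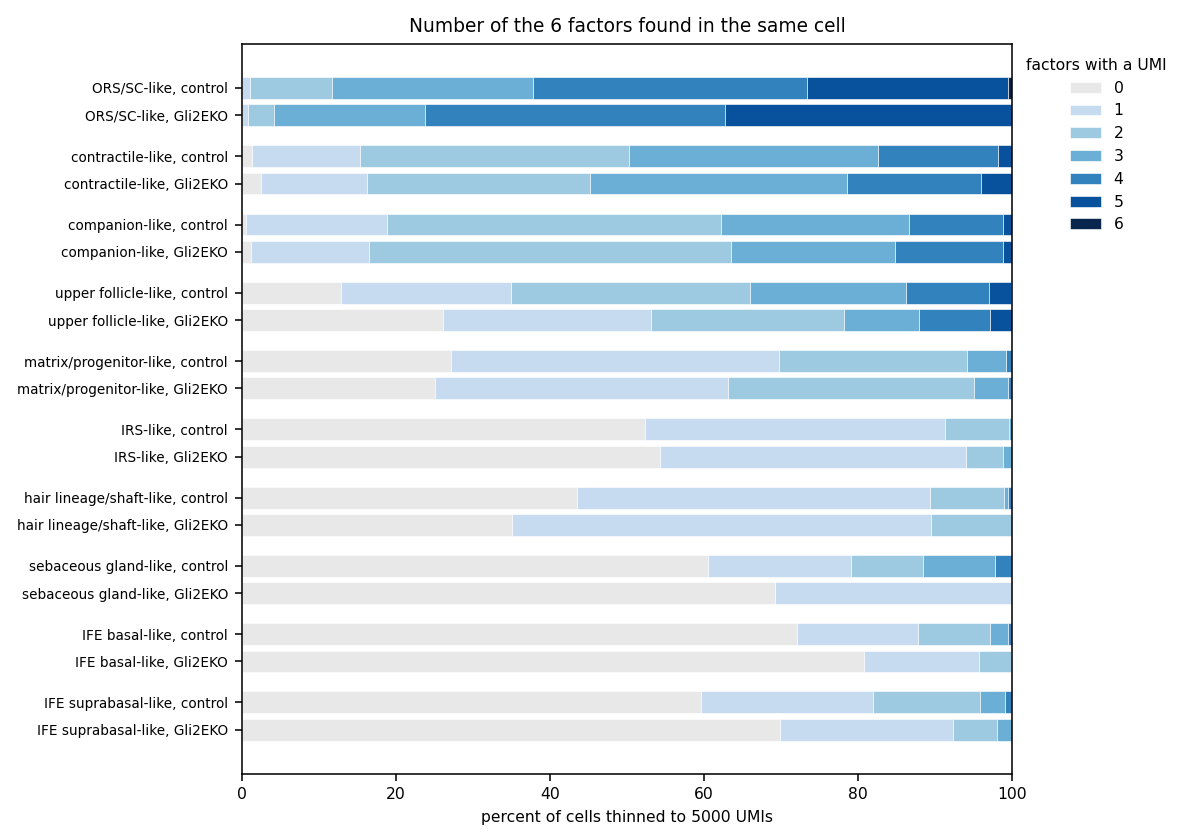
Share of cells (percent, horizontal axis) in which 0 to 6 of the factors had a UMI, after thinning every cell to 5000 UMIs, for each class and library. Dark blue for 4 or more factors fills 62.2% of control and 76.3% of Gli2EKO ORS/SC-like cells, and grey for none fills 72.0% and 80.7% of IFE basal-like cells.

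For each of the 15 pairs of factors, the share of cells with both was set beside the product of the single shares, first over all keratinocytes and then with the product taken within each cluster. Over all keratinocytes, Sox9 and Lhx2 were found together in 19.9% of control cells (18.5 to 21.4), 1.36 times the product, and in 16.2% of Gli2EKO cells (14.6 to 17.8), 1.80 times the product. Lhx2 and Tbx1 were found together in 21.8% and 16.2%, which was 1.69 and 2.43 times the product. Sox9 and Nfatc1 were together in 10.4% and 8.93%, at 1.82 and 1.83 times. With the product taken within clusters, these ratios were 1.04 and 1.06 for Sox9 and Lhx2, 1.08 and 1.06 for Lhx2 and Tbx1, and 1.14 and 1.13 for Sox9 and Nfatc1. Cells with both factors of these pairs were therefore nearly as frequent as the single shares within clusters give.

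Pairs with Gata6 fell on both sides. Gata6 and Nfatc1 were found together in 55 control cells (1.84%) and 32 Gli2EKO cells (1.51%), 2.70 and 2.80 times the product over all keratinocytes and 1.23 and 1.51 times within clusters. Gata6 and Tbx1 shared only 12 control and 10 Gli2EKO cells, 0.287 and 0.529 times the product and 0.495 and 0.698 times within clusters. Gata6 and Lhx2 shared 23 and 9 cells, 0.435 and 0.429 times the product and 0.789 and 0.612 times within clusters. In upper follicle-like cells, where Gata6 was found most in the control, Lhx2 and Tbx1 shared 27 of 420 control and 16 of 279 Gli2EKO cells, 2.78 and 4.40 times the product, while Lhx2 and Gata6 shared 6 and 2 cells, 0.488 and 0.380 times the product. In ORS/SC-like cells, where 5 of the factors were frequent, the 10 pairs without Gata6 lay between 0.962 and 1.07 times the product in both libraries. Sox9 was found in nearly all of these cells, at 96.7% in the control and 91.5% in the Gli2EKO library. The ratios of its pairs could thus depart little from 1 and cannot tell whether the factors were found independently.

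**Figure D4:**
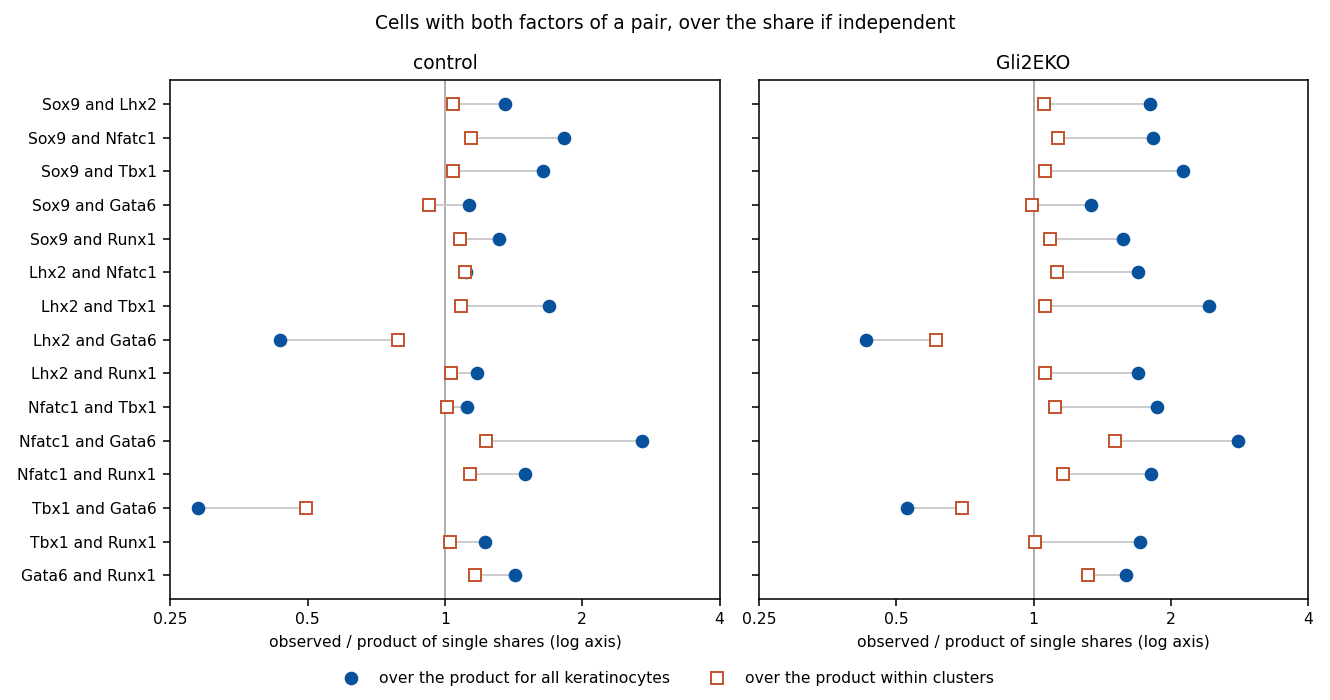
Observed share of cells with both factors of a pair divided by the product of the single shares (log axis, 1 for independence) in the control and Gli2EKO libraries at 5000 UMIs per cell, over all keratinocytes (filled circles) and with the product taken within clusters (open squares). The squares lie closer to 1 than the circles for 15 of 15 pairs in each library, and the pairs of Gata6 with Lhx2 and with Tbx1 lie below 1.

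The pattern of each factor over clusters was compared with that of 10586 other genes by Pearson's r of log2(CPM + 10) over 32 points, 16 clusters in each of the libraries, which share their cells' library, depth and cluster. These values are descriptions. Sox9 was most like Cdc42ep3 (r = 0.91), Ncald (r = 0.91) and Ephb6 (r = 0.88), and Tbx1 most like Bgn (r = 0.96), Timp2 (r = 0.95) and Selenom (r = 0.95). Lhx2 was most like Sertad4 (r = 0.89) and Aplp2 (r = 0.89), and Runx1 most like Adgra3 (r = 0.88) and Tns3 (r = 0.85), with Adgra3 also among the 5 genes nearest to Lhx2. Nfatc1 was most like Ncam1 (r = 0.92), Pthlh (r = 0.89) and Cxcr4 (r = 0.88), and Gata6 most like Gm47316 (r = 0.84), Egr2 (r = 0.82) and Cpsf4l (r = 0.82). The names depend on the libraries used, since in the control library alone 0 of the 5 genes nearest to Gata6, 1 of 5 for Lhx2, 2 of 5 for Nfatc1, 3 of 5 for Tbx1 and 4 of 5 for Sox9 and for Runx1 were again among the nearest 5. Among the factors themselves, r was 0.79 for Lhx2 and Tbx1, 0.77 for Lhx2 and Runx1, 0.75 for Sox9 and Tbx1 and 0.62 for Nfatc1 and Gata6, and 0.01 for Gata6 with Lhx2 and with Tbx1.

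A further set of factors known from HF stem cells and the outer sheath were examined in the same way. Of these 12, 9 had their highest class level in ORS/SC-like cells, a class that was highest for 16.7% of 15639 genes. Tcf7l1, a Wnt pathway repressor of stem cells, reached 304 CPM there, Foxc1, a forkhead factor of stem cell quiescence, 95.7 CPM, and Barx2, a homeobox factor, 1441 CPM, all over both libraries together. Over all keratinocytes the list had a median log2 ratio of -0.35, with 2 of 12 past 0.5 (5.38% of all genes) and 4 of 12 past -0.5 (13.0%). Hmga2, a chromatin protein of embryonic cells, was at 3.57 CPM in the control and 9.68 CPM in the Gli2EKO library, a log2 ratio of 1.44 (1.16 to 1.72), and Klf5, highest in IFE basal-like cells, had a log2 ratio of 0.52 (0.47 to 0.56). The lower genes were Vdr, the vitamin D receptor, at -0.68, Foxp1 at -0.65, Tcf7l1 at -0.53 and Nfib at -0.53.

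Of 19 relatives and partners of the 6 factors, 11 had at least 50 UMIs, with 1 past 0.5 (5.38% of all genes) and 3 past -0.5 (13.0%). Their median log2 ratio was -0.15, beside -0.14 over all genes. Sox6 was highest in IFE basal-like cells, at 569 CPM, and had a log2 ratio of 0.84 (0.79 to 0.90), whereas Sox5 was highest in IRS-like cells, at 1106 CPM, and had one of -1.39 (-1.44 to -1.35). Runx3 had a log2 ratio of -1.61, from 42 and 10 UMIs, and Cbfb, the partner of Runx1, one of -0.50, at 72.2 CPM in the control and 51.1 CPM in the Gli2EKO library. Runx2 was at 18.3 and 17.0 CPM, and Gata3, highest in IRS-like cells, at 120 and 116 CPM. Sox8, Sox10, Lhx9, Tbx2, Tbx3, Tbx18, Gata2 and Gata4 each had under 50 UMIs.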

How the data were processed

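Epidermal cells of 1 control and 1 Gli2EKO library were processed by the authors with Cell Ranger 9.0.1 against GRCm39, per the submitters' processing notes, and the deposited values are raw UMI counts per gene and barcode, without normalization. The deposited control library held 71021773 UMIs over 6326 barcodes, with a median of 9796.5, and the Gli2EKO library 48866478 UMIs over 4296, with a median of 10054.5. All CPM, percentages and log2 ratios were computed here. Cells with over 1000 and under 8000 genes and under 15% mitochondrial UMIs were kept, and the 8% of cells with the highest Scrublet score (scanpy 1.11.5, expected rate 0.06) were removed per library, because the automatic threshold marked 260 control and 5 Gli2EKO cells. Seurat 5.3.0 in R 4.3.3 was used for log-normalization, 2000 variable genes without the 6 factors, 20 principal components and Louvain clustering at resolution 0.5, once for all cells and once for keratinocytes, with Harmony written anew at its default settings, which need not give the study's embedding. A cluster was set aside as another cell type when on average over 40% of its cells had a UMI of that type's markers, a limit chosen after the data were seen. Keratinocyte clusters took the class with the highest mean log2(CPM + 10) of its markers over the cluster mean, at a score of at least 1 with at least 3 markers found in 10% of cells. Intervals are exact Poisson for CPM, conditional binomial for log2 ratios and Clopper-Pearson for shares, all at 95%, and cover counting error only. A count of 0 was given the upper limit of 3 counts. The interval script was tested on simulated data. The genes named are the 6 factors, the class markers, genes of 2 lists written from general knowledge and, for each factor, genes among the 5 most like it. The factors and lists were chosen with earlier results of these data known. Coordinates and promoter windows come from GRCm39 with a later GENCODE release, in which all 6 identifiers matched. The study's test over cells was not used, because cells of 1 library are not replicates.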

Additional observations from a re-analysis of the deposited data

Results flagged for a closer look

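Sox9, Nfatc1, Tbx1, Gata6 and Runx1 each had a higher level in the Gli2EKO library in some classes and a lower level in others. Their counting intervals lay on opposite sides of 0, and the share of all genes with such intervals was not counted. Whether the classes differ was not tested, since there is 1 library per genotype. For Sox9 the log2 ratio was 1.33 (0.91 to 1.75) in matrix/progenitor-like cells and -0.96 (-1.18 to -0.74) in IFE suprabasal-like cells, with its control level in the matrix near that of immune cells. The shares of IFE suprabasal-like cells with Sox9 had overlapping intervals. A single control cell held 49 of the 428 Sox9 UMIs of that class, and without it the log2 ratio was -0.80. For Nfatc1 it was 1.25 (0.70 to 1.80) in matrix/progenitor-like and -1.06 (-1.47 to -0.66) in IFE basal-like cells, but the levels in both classes, 7.89 and 18.7 CPM and 20.8 and 9.97 CPM, lay near those of melanocytes, at 13.2 and 19.1 CPM, so no opposite direction is read from these 2 classes. In contractile-like cells the log2 ratio of Nfatc1 was 0.93 (0.64 to 1.22), with only the Gli2EKO level above the melanocytes. In upper follicle-like cells, at 173 and 137 CPM, it was -0.34 (-0.48 to -0.19). For Tbx1 it was 0.71 (0.54 to 0.87) in ORS/SC-like and -1.51 (-2.30 to -0.76) in IFE basal-like cells, where its level was background. For Gata6 it was 2.43 (1.81 to 3.09) in companion-like and -1.48 (-1.98 to -1.002) in IFE suprabasal-like cells. For Runx1 it was 0.70 (0.46 to 0.94) in companion-like and -1.07 (-1.31 to -0.83) in IFE suprabasal-like cells, the former falling to 0.41 (0.15 to 0.66) without the Gli2EKO cell with 58 UMIs.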

How the results depend on the processing

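With 1 library per genotype no value has a replicate error, and clusters, names and doublet calls were rebuilt here. No paired analysis was possible because each genotype has 1 library and the labels carry no replicate numbers. Of 107 values recomputed under other settings, 1 changed sign and 19 others moved past their limit, which was the counting interval for ratios, 0.05 for r and 1.5 times for counts of genes. Weighting the Gli2EKO clusters to the control cell shares gave log2 ratios over all keratinocytes of -0.0416 for Sox9, -0.29 for Lhx2, 0.11 for Nfatc1, which changed sign, -0.00242 for Tbx1 and -0.0609 for Runx1. The mean of per-cell CPM gave -0.20 for Sox9, -0.62 for Lhx2 and -0.15 for Tbx1, and no doublet removal gave -0.25 for Sox9. Without integration the log2 ratio was 0.52 for Tbx1 in ORS/SC-like and 0.84 for Gata6 in companion-like cells. Thinned to 2000 UMIs, cells with Sox9 and Lhx2 in the Gli2EKO library were 2.13 times the product, and those with Sox9 and Nfatc1 2.17 times in the control and 2.14 times in the Gli2EKO library. Without thinning these ratios were 1.498, 1.62 and 1.57, and that of Sox9 and Lhx2 in the control was 1.22. In the control library alone the gene most like Gata6 reached r = 0.89. Without the Gli2EKO cell with the most UMIs, left out after the data were seen, the log2 ratio of Runx1 in companion-like cells was 0.41. The causes were not tested. Over 6 combinations of setting and library, the class with the highest level was that of the reported clustering in all 6 for Sox9, Lhx2 and Nfatc1 and in 5 for Tbx1, Gata6 and Runx1, which changed without integration to ORS/SC-like for Tbx1 and sebaceous gland-like for Runx1 in the control and to upper follicle-like for Gata6 in the Gli2EKO library.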

Other observations

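Among the cells set aside from the keratinocytes, Tbx1 had 3 UMIs in 23 control endothelial cells (11.03 CPM, 2.28 to 32.2) and 13 UMIs in 10 Gli2EKO endothelial cells (95.5 CPM, 50.8 to 163). Fibroblasts carried Runx1 at 81.7 CPM (76.2 to 87.5) in the control and 72.2 CPM (65.9 to 78.9) in the Gli2EKO library, and Nfatc1 at 38.6 and 31.8 CPM. Schwann cells of the control had 23 Sox9 UMIs in 43 cells (44.7 CPM, 28.3 to 67.0), and those of the Gli2EKO library none in 10 cells, which allows up to 33.3 CPM.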
